A study of Mus musculus with 8 samples.

Results

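The comparison described here is that of fear-conditioned with context-control mice in frontal cortex 6 h after training, 2 of the 8 libraries of the study. Its libraries were taken by their labelled tissue and time. Of 21643 genes in the deposited table, 11563 had at least 20 counts over both libraries and were measured. Both libraries came from C57Bl/6 mice, 7 to 9 weeks old, with no transgene or deletion named in the labels. The conditioned mice had been trained in contextual fear conditioning, and the control mice had been exposed to the context alone. The labels name 4 mice of each training state over the whole study and do not say how many contributed to a library. The remaining libraries were the same 2 states in cortex at 1 h and in hippocampus at 1 h and 6 h, 1 library each. Ribosome-bound RNA was extracted with Trizol from prefrontal cortex, ribosomal RNA was depleted, and 200 ng entered a cDNA synthesis primed with both random hexamers and poly A primers, followed by isothermal (SPIA) amplification. With 1 library a side there is no test: each ratio is given with its exact 95% interval, which covers counting error only and not the spread between animals or preparations.

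In contextual fear conditioning an animal learns that a place predicts foot shock, a memory that depends on hippocampus and amygdala and engages the prefrontal cortex as it consolidates. Consolidation needs protein synthesis in the hours after training. Messages loaded with several ribosomes sediment as polyribosomes, so the fraction is used as a measure of what is being translated. Immediate early genes such as Fos, Egr1, Npas4 and Arc are transcribed within minutes of strong synaptic activity, without new protein synthesis, and their short-lived messages then decline.

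The control library held 5275822 counts and the conditioned library 5296986, the deepest pair of the series, whose totals ranged from 2370973 to 5296986. They gave counts for 15009 and 14961 genes, and their scaling factors were 1.01 and 1.00. Levels are counts scaled to a common library size (CPM) with these factors. Some of the libraries outside the cortex 6 h pair stand apart. The conditioned 1 h libraries labelled cortex and hippocampus agree within sampling noise: 4.81% of 11338 genes had an interval that excluded equality, and of 7305 genes with at least 100 counts only 1 (0.0137%) differed 2-fold. The library labelled cortex conditioned 1 h goes against its label: the dentate granule cell genes C1ql2 and Dsp had 86 and 32 counts there, against 1 and 0 in the cortex control 1 h library. Its hippocampal markers summed to 696 CPM, against 356 CPM in that control, and were near the 680 CPM of its hippocampus counterpart. That counterpart was in turn below the 1014 CPM of the hippocampus control 1 h library. It had 71 C1ql2 and 40 Dsp counts, against 156 and 91 in that hippocampus control. The tissue of both conditioned 1 h libraries is therefore in doubt wherever they are printed below. Kif5c, a kinesin motor, took 8.01% of the counts of the hippocampus control 6 h library. These 3 libraries entered the scaling and are otherwise given only as values beside the cortex pair.

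The cortical identity of the pair was checked against markers. The 24 markers of cortical excitatory neurons summed to 2890 CPM in the control and 2888 CPM in the conditioned library. Prox1, which marks dentate granule cells, had 20.2 and 19.2 CPM, against 136 and 244 CPM in the hippocampus control libraries at 1 h and 6 h. The dentate markers Dsp and C1ql2 had at most 2 counts in either cortex 6 h library, and Iyd had 0 in both. On these markers both libraries were as labelled. The 18 hippocampal markers summed to 358 and 380 CPM, against 1014 and 1673 CPM in the hippocampus controls.

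Most messages on polyribosomes were near equal in the 2 libraries, and the genes that differed 2-fold were more often lower after conditioning. The median log2 ratio was 0.01, with quartiles of -0.20 and 0.22, and 87.7% of genes lay within 1.5-fold. A gene was counted as 2-fold different when its ratio was at least 2, or at most 0.5, and its interval excluded 1: 105 genes (0.908%) were higher and 141 (1.22%) lower. With scaling factors computed without the 3 libraries that stand apart, the counts were 93 and 158. At a 1.5-fold threshold the counts were 366 (3.17%) and 388 (3.36%). Among the 7738 genes with at least 100 counts, 198 (2.56%) were higher and 197 (2.55%) lower 1.5-fold. At 2-fold, 12 (0.155%) of them were higher and 28 (0.362%) lower. Of these 12 genes 8 were also above the cortex control 1 h library, and of the 28 lower genes 24 were also below it. That library is of another time, and the share of all genes above or below it was not computed. In the hippocampus at 6 h the same comparison gave 41.6% of 10408 genes within 1.5-fold and 3313 genes (31.8%) 2-fold different, with the library dominated by Kif5c on the control side.

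**Figure D1:**
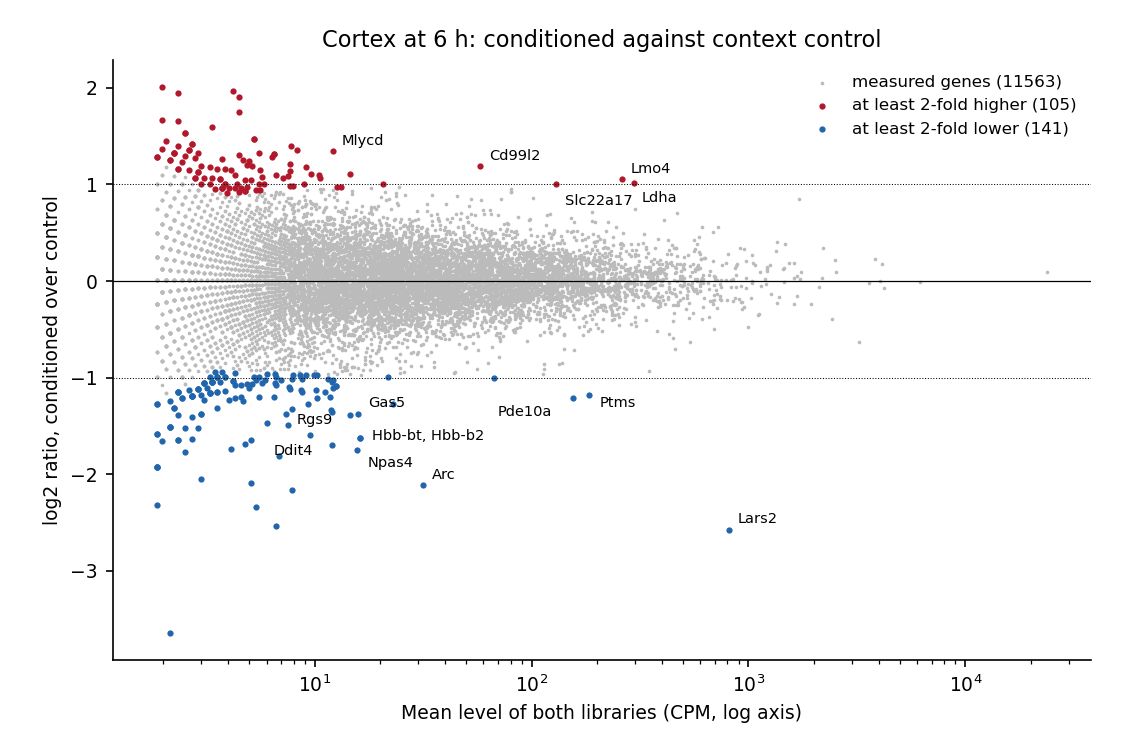
Log2 ratio of conditioned over control in cortex at 6 h (vertical axis) against the mean level of both libraries in CPM (horizontal log axis), 1 point per gene, for 11563 measured genes; red points are the 105 genes at least 2-fold higher, blue points the 141 at least 2-fold lower, and dotted lines mark 2-fold. Lars2, Arc, Npas4, Ptms and Pde10a lie below the band of grey points at levels where few other genes leave it, and Lmo4, Ldha, Slc22a17 and Cd99l2 lie above it.

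Activity-induced genes were a group among the lower ones. Arc, an effector that drives AMPA receptor endocytosis and is itself required for lasting memory, and 5 immediate early transcription factors (Npas4, Fos, Junb, Egr2 and Fosb) were between 2.98-fold and 4.97-fold lower in the conditioned library. Egr1 and Nr4a1 were lower by less than 2-fold, and Bdnf and Homer1 had intervals that included equality. Of 28 immediate early transcription factors 22 were measured, of which 18 had negative and 4 positive log2 ratios; 5 were 2-fold lower (22.7%, beside 1.22% of all genes) and 0 were 2-fold higher. Their median log2 ratio was -0.29, beside 0.01 over all genes. In the same control and conditioned libraries the striatal neuron markers described below summed to 593 and 309 CPM and the blood genes to 115 and 51.5 CPM, and their part in the activity result was not tested.

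Arc stood at 51.6 CPM in the control and 11.7 CPM in the conditioned cortex 6 h library. In the other libraries labelled cortex it stood at 141 CPM (control 1 h) and 81.8 CPM (conditioned 1 h), and in hippocampus at 89.0 CPM (control 1 h), 85.8 CPM (conditioned 1 h), 22.7 CPM (control 6 h) and 39.8 CPM (conditioned 6 h). The conditioned cortex 6 h library was therefore the lowest of all 8. Its 62 counts against 276 were 4.43-fold lower (interval 3.35 to 5.93), whereas in hippocampus at 6 h the conditioned library was the higher one, with a ratio of 1.76 (1.25 to 2.51) against the control library dominated by Kif5c.

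Npas4, a neuronal transcription factor induced by calcium influx that regulates inhibitory synapses, stood at 24.3 CPM in the control and 6.96 CPM in the conditioned library. The 1 h libraries labelled cortex gave 27.6 CPM (control) and 9.90 CPM (conditioned), and the hippocampus libraries 13.7, 11.4, 9.49 and 4.47 CPM (control and conditioned at 1 h, then at 6 h). Both cortex controls were thus above every other library. The 37 counts against 130 were 3.49-fold lower (2.41 to 5.18), and the hippocampus ratio at 6 h was 0.471 (0.237 to 0.945), in the same direction.

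Fos, a subunit of the AP-1 transcription factor, had 13.1 CPM in the control and 2.63 CPM in the conditioned cortex 6 h library. At 1 h the libraries labelled cortex had 22.9 CPM (control) and 15.3 CPM (conditioned), and hippocampus had 11.1, 16.9, 2.11 and 1.34 CPM in the order used for Npas4. Fos was low in 3 of the 4 libraries at 6 h, the cortex control being the exception. Its 14 counts against 70 were 4.97-fold lower (2.77 to 9.56).

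Junb, a partner of Fos in AP-1, had 7.48 CPM in the control and 2.07 CPM in the conditioned library, the lowest of the 8. The 1 h libraries labelled cortex had 30.0 and 17.0 CPM, and those of hippocampus 16.8, 16.4, 3.69 and 6.71 CPM. Its 11 counts against 40 were 3.61-fold lower (1.82 to 7.81). Fosb, the closest relative of Fos and named after its values were seen, had 11.2 and 3.76 CPM, and 20 counts against 60 were 2.98-fold lower (1.77 to 5.22).

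Egr2, a zinc finger factor of the Egr family, had 10.8 CPM in the control and 2.82 CPM in the conditioned cortex 6 h library. The 1 h libraries labelled cortex had 39.3 and 25.2 CPM and the hippocampus libraries 11.1, 26.9, 1.58 and 2.68 CPM, so the conditioned cortex library at 6 h was close to both hippocampus libraries of that time. Its 15 counts against 58 were 3.84-fold lower (2.15 to 7.30). Its family members differed in size of effect: Egr1 had a ratio of 0.667 (0.629 to 0.707), while Egr3 stood at 0.904 (0.738 to 1.11) and Egr4 at 0.986 (0.651 to 1.49).

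Egr1, the most deeply counted of the family and a standard marker of neuronal activity, had 539 CPM in the control and 359 CPM in the conditioned library, from 2884 and 1911 counts. In the 1 h libraries labelled cortex it had 1664 and 1082 CPM, and in hippocampus 463, 1128, 193 and 261 CPM. Nr4a1, an orphan nuclear receptor induced by activity, had 23.6 and 12.2 CPM in the pair, a ratio of 0.519 (0.379 to 0.705). For both genes the cortex 6 h libraries were below the cortex control 1 h library.

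**Figure D2:**
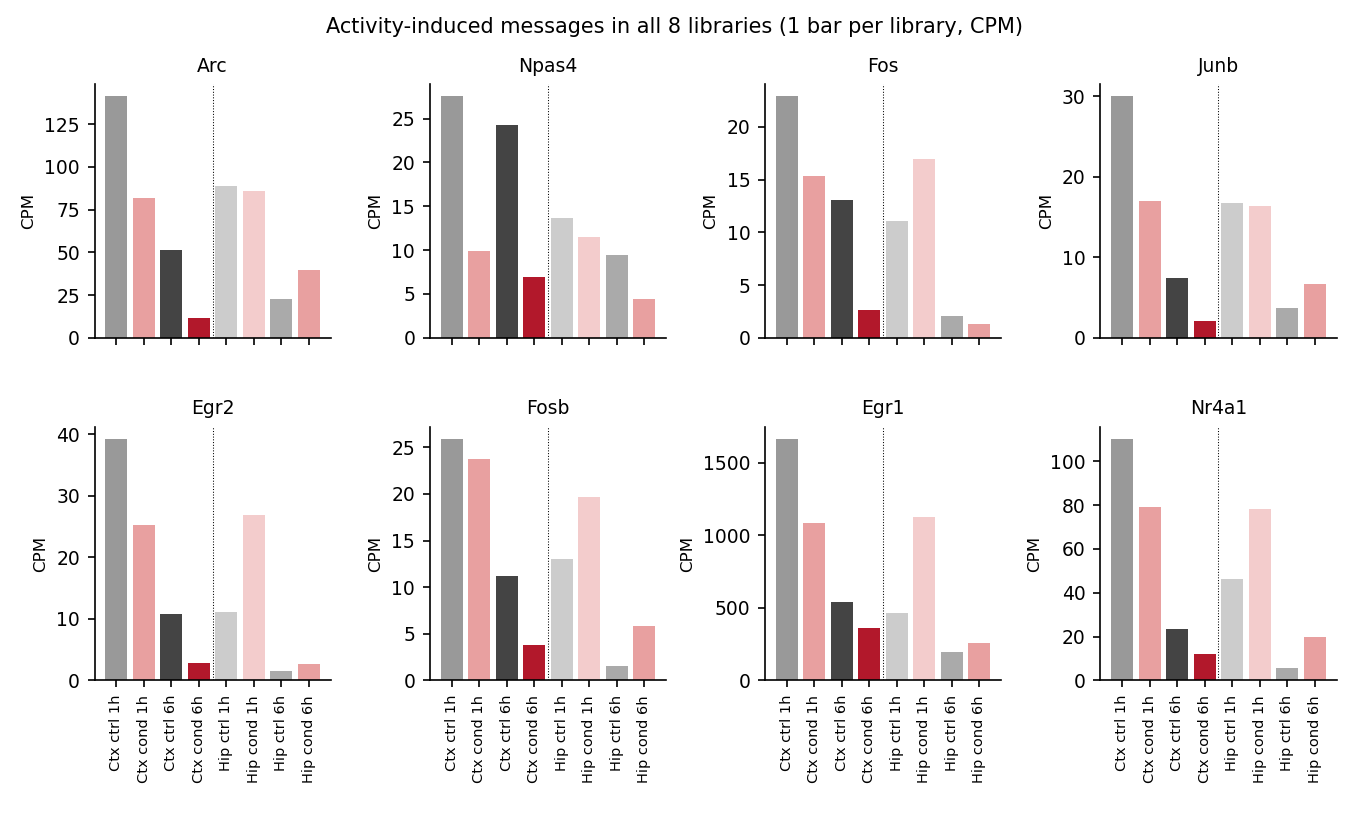
Level in CPM (vertical axes, each from 0) of 8 activity-induced genes in each of the 8 libraries, 1 bar per library without error bars since no group has a replicate; Ctx and Hip are cortex and hippocampus, ctrl and cond control and conditioned, and the dark grey and dark red bars are the cortex 6 h pair. The dark red bar is below the dark grey bar in all 8 panels, from 51.6 to 11.7 CPM for Arc and from 539 to 359 CPM for Egr1.

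The promoters of the 4 lower transcription factor genes with a single listed start are shown with the core of the cyclic AMP response element, to which the factor CREB binds. The core searched was TGACG, or CGTCA on the opposite strand, within the 250 bases before the annotated start (RefSeq, GRCm38.p6). The stretches run 5′ to 3′ on the gene's strand and the capitals mark the core. Npas4 lies at chr19:4990086-4990200 (minus strand), Fos at chr12:85473711-85473878 (plus), Fosb at chr7:19310051-19310155 (minus) and Junb at chr8:84978800-84978904 (minus).
Npas4: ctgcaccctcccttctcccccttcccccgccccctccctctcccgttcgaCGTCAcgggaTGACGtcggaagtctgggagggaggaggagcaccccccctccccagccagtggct
Fos: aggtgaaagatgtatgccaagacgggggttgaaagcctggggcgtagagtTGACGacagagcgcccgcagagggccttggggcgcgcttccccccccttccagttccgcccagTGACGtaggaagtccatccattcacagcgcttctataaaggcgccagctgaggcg
Fosb: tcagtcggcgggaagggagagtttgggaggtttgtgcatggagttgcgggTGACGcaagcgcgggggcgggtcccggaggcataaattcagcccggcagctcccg
Junb: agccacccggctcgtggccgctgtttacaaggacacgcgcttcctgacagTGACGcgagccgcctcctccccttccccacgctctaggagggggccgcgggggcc
Npas4 and Fos held 2 cores each, and Fosb and Junb 1 each. Egr2 had 5 listed starts, of which 3 overlapping or neighbouring windows held the core, and is not printed. Over all 32851 promoter windows, searched over the same length, 17.8% held the core and 1.55% the full palindrome TGACGTCA. The match is a description of the letters, and binding was not measured.

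The late effectors of neuronal activity lay on both sides of equality. Of 26 listed, 22 were measured, with a median log2 ratio of -0.08. Arc was 2-fold lower (4.55% of those measured, beside 1.22% of all genes) and none was 2-fold higher. A share that rests on 1 gene does not describe the list. Bdnf, the neurotrophin of activity-dependent synaptic growth, had 12.5 and 16.4 CPM in the pair, a ratio of 1.31 (0.939 to 1.82) on 67 and 87 counts. Homer1, a postsynaptic scaffold, had 164 and 158 CPM, a ratio of 0.960 (0.872 to 1.06). Inhba, the activin A subunit, was higher at 1.61 (1.17 to 2.25), and Rgs4, a regulator of G-protein signalling, at 1.47 (1.40 to 1.54).

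Feedback inhibitors of MAP kinase signalling, which are transcribed in the wake of the same signals, leaned lower. Of 14 listed, 12 were measured; 9 had negative and 3 positive log2 ratios, the median was -0.23, and 0 differed 2-fold. Dusp1, the nuclear MAP kinase phosphatase, had 80.8 and 44.8 CPM, a ratio of 0.554 (0.471 to 0.651). Spry4, a receptor tyrosine kinase antagonist, had a ratio of 0.610 (0.427 to 0.865). These 2 were the list's members past 1.5-fold, against 3.36% of all genes.

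The glucocorticoid-responsive genes, which report on stress hormone, gave a median of -0.28 over 16 measured of 21 listed, with 11 negative and 5 positive. Ddit4, an inhibitor of the growth kinase complex mTORC1 that glucocorticoids induce, had 18.5 CPM in the control and 5.45 CPM in the conditioned library, where it was the lowest of the 8 (11.9 to 29.0 CPM in the other 6). Its 29 counts against 99 were 3.39-fold lower (2.22 to 5.33). Tsc22d3 (GILZ), a glucocorticoid-induced anti-inflammatory factor, had a ratio of 0.651 (0.470 to 0.896). Sgk1, a kinase of the same response, stood at 0.761 (0.607 to 0.953) and Fkbp5, the receptor's co-chaperone, at 1.21 (0.831 to 1.78).

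**Figure D3:**
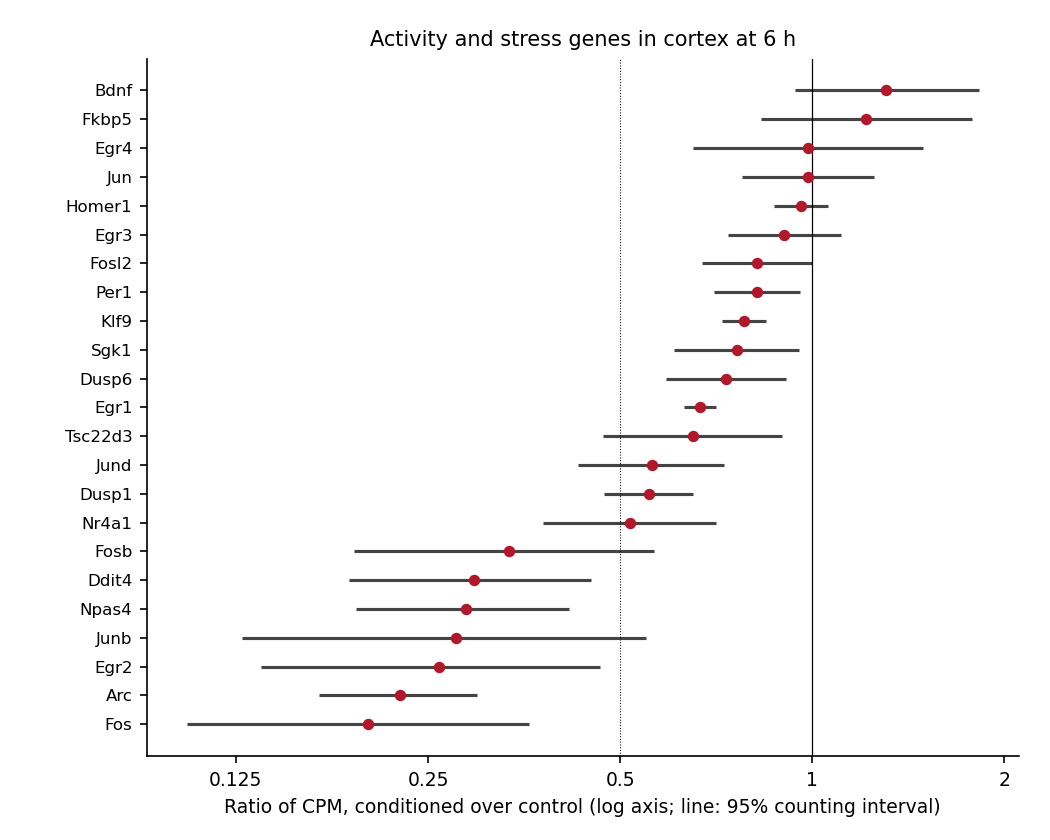
Ratio of CPM, conditioned over control, in cortex at 6 h (horizontal log axis) for 23 activity and stress genes; points are ratios, lines their 95% counting intervals, the solid line marks equality and the dotted line a ratio of 0.5. Fos, Arc, Egr2, Junb, Npas4, Ddit4 and Fosb lie left of the dotted line, and the intervals of Bdnf, Fkbp5, Egr4, Jun, Homer1 and Egr3 include 1.

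Of the gene lists, that of striatal projection neuron markers had the median farthest from equality. These are genes of the medium spiny neurons of the caudate, putamen and accumbens, several of which are expressed in cortex too. Of 15 markers 13 were measured, and all 13 had negative log2 ratios. Of these 7 were 2-fold lower (53.8%, beside 1.22% of all genes) and 9 were 1.5-fold lower, with a median log2 ratio of -1.11 and quartiles of -1.39 and -0.57. The summed level of the list was 593 CPM in the control and 309 CPM in the conditioned library, and 563 CPM in the cortex control 1 h library. In bulk tissue, fewer cells of a type and less RNA per cell cannot be told apart. Whether the dissections of the 2 libraries took in unequal amounts of neighbouring tissue was not tested.

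Drd2, the dopamine receptor of the indirect striatal pathway, had 8.41 CPM in the control and 1.69 CPM in the conditioned library, from 45 and 9 counts, 4.97-fold lower (2.4 to 11.6). The 1 h libraries labelled cortex had 4.91 CPM (control) and 1.89 CPM (conditioned), and the 4 hippocampus libraries 0.527 to 2.99 CPM. Adora2a, the adenosine receptor of the same neurons, had 9.16 and 1.5 CPM in the pair, 6.09-fold lower (2.86 to 14.9), and 13.6 and 3.06 CPM at 1 h. For each of the 2 receptors both cortex controls were thus above every other library.

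Six3, a transcription factor of developing striatal neurons, had 11.6 and 1.69 CPM in the pair, on 62 and 9 counts, 6.85-fold lower (3.38 to 15.7). Pde10a, the striatal cyclic nucleotide phosphodiesterase, had 216 and 93.7 CPM in the pair, 124 and 57.7 CPM in the 1 h libraries labelled cortex, and 74.8, 68.7, 108 and 76.9 CPM in hippocampus. Its 498 counts against 1158 were 2.31-fold lower (2.08 to 2.57). Rgs9, whose product ends dopamine receptor signals in these neurons, had 21.3 and 7.90 CPM, 2.70-fold lower (1.88 to 3.94).

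Other striatal markers differed less, or had fewer counts. Ppp1r1b, which encodes the dopamine-regulated phosphatase inhibitor DARPP-32, had 148 and 78.8 CPM, 1.88-fold lower (1.67 to 2.13). Drd1, the receptor of the direct pathway, had a ratio of 0.627 (0.407 to 0.955), and Penk, the enkephalin precursor, one of 0.808 (0.689 to 0.945) on 360 and 289 counts. Pdyn, the dynorphin precursor, had a ratio of 0.383 (0.147 to 0.901) on 21 and 8 counts, and Rarb, a retinoic acid receptor, was 2.21-fold lower (1.51 to 3.30). Gpr6 and Isl1 were not measured, with 2 and 2 counts and 11 and 2 counts.

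The list of dopamine receptors and signalling genes overlapped with these markers and had a median of -0.61, with all 10 measured genes negative and 3 of them 2-fold lower (30.0%, beside 1.22% of all genes). The members outside the striatal list were nearer equality: Gnal, the G-protein subunit that couples dopamine receptors to adenylyl cyclase, stood at 0.866 (0.814 to 0.922), Arpp21 at 0.855 (0.783 to 0.934) and Pde1b at 0.705 (0.602 to 0.824).

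**Figure D4:**
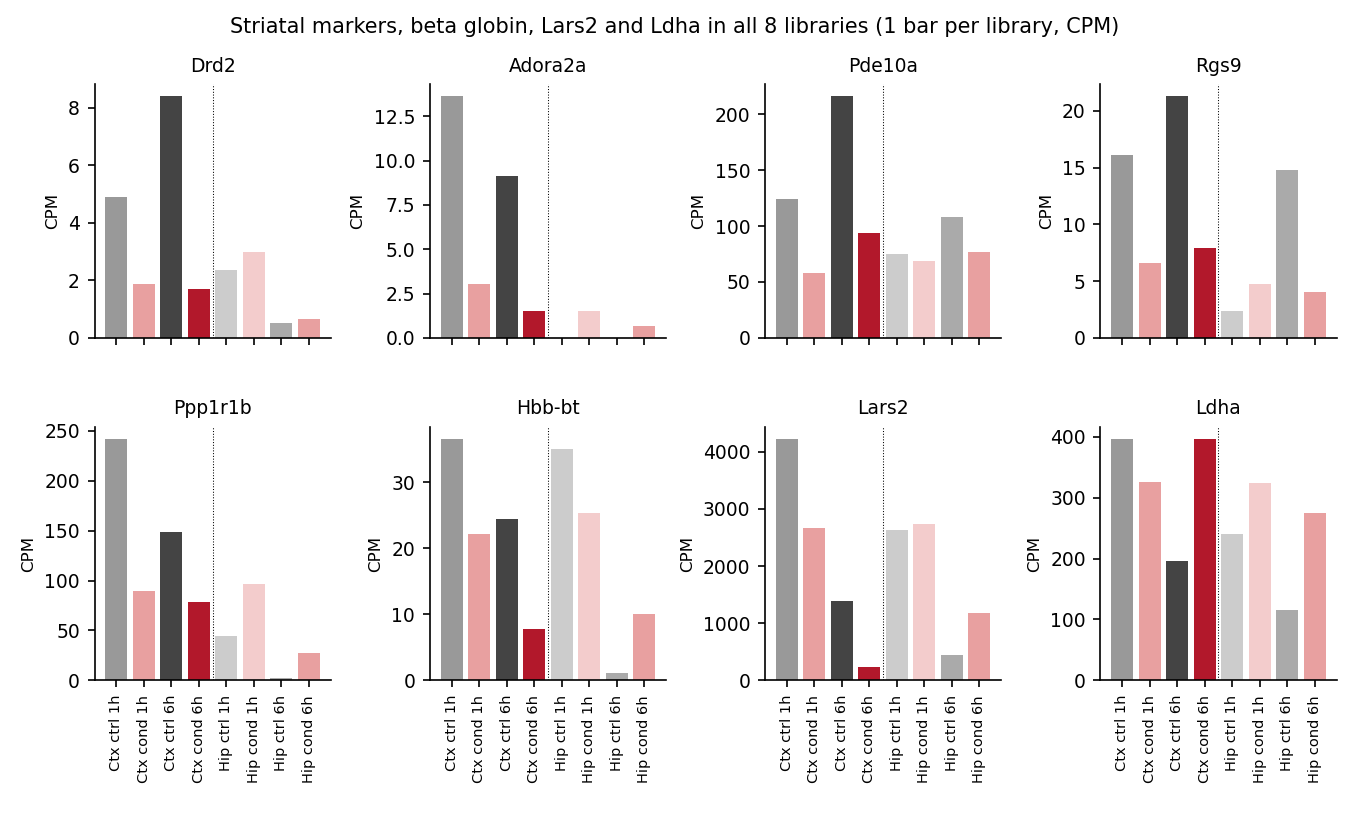
Level in CPM (vertical axes, each from 0) of 5 striatal markers, a beta globin, Lars2 and Ldha in each of the 8 libraries, 1 bar per library without error bars; Ctx and Hip are cortex and hippocampus, ctrl and cond control and conditioned, and the dark grey and dark red bars are the cortex 6 h pair. Drd2 and Adora2a are highest in the cortex controls, Lars2 and Hbb-bt are lower in the conditioned 6 h library (233 and 7.71 CPM) than in the other libraries labelled cortex, and Ldha is at 196 CPM in the control and 397 CPM in the conditioned library.

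Blood genes were also lower. All 5 measured of 13 listed had negative log2 ratios, the median was -0.90, and the summed level of the list was 115 CPM in the control and 51.5 CPM in the conditioned library. Hbb-bt and Hbb-b2 had identical counts, as did Hba-a1 and Hba-a2, so the 5 genes are 3 distinct values, which summed to 67.3 and 30.7 CPM when each was taken once. Hbb-bt, an adult beta globin, had 24.5 and 7.71 CPM in the pair, 36.6 and 22.1 CPM in the 1 h libraries labelled cortex, and 34.9, 25.4, 1.05 and 10.1 CPM in hippocampus. Its 41 counts against 131 were 3.18-fold lower (2.22 to 4.63). Hbb-bs and Hba-a1 had ratios of 0.526 (0.376 to 0.728) and 0.546 (0.396 to 0.746). Endothelial and mural markers had a median of 0.32, with Acta2, the smooth muscle actin, 2.47-fold higher (1.19 to 5.52) on 11 and 27 counts. In that list Cldn5, Pecam1, Tie1 and Kcnj8 had 0 counts in at least 1 of the pair's libraries. Of the blood list S100a8, S100a9 and Cd3e had 0 counts in at least 1 of them.

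The largest single difference among deeply counted genes was Lars2, the mitochondrial leucyl-tRNA synthetase. It stood at 1389.7 CPM in the control and 233 CPM in the conditioned library, on 7434 and 1240 counts. The 1 h libraries labelled cortex held 4229 and 2675 CPM and the hippocampus libraries 2640.0, 2742, 452 and 1188 CPM. The conditioned cortex 6 h library was the lowest of the 8, and the message was 5.96-fold lower there (5.61 to 6.33). In hippocampus at 6 h the conditioned library was the higher one, with a ratio of 2.63 (2.45 to 2.83).

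Other genes of the lower group belonged to no activity or striatal list. Ptms, the small acidic protein parathymosin, had 255 and 113 CPM, 2.26-fold lower (2.05 to 2.5). Rab4b, a GTPase of endosomal recycling, had 32.7 and 13.4 CPM, 2.45-fold lower (1.85 to 3.28). Cd4, the co-receptor of helper T cells, had 14.4 and 4.51 CPM, 3.19-fold lower (1.99 to 5.27), with 4.09 and 1.18 CPM in the 1 h libraries labelled cortex. The cortex control 6 h library was the highest of the 8 for Cd4, and all 4 hippocampus libraries lay at or below 0.995 CPM.

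Noncoding RNAs leaned lower as a list: 11 of 24 were measured, 10 of them negative, with a median of -0.35. Gas5, a host transcript of small nucleolar RNAs, had 23.0 and 8.65 CPM, 2.66-fold lower (1.88 to 3.82), and in the hippocampus controls 51.5 and 60.1 CPM. Malat1, a nuclear-retained RNA that is not translated, had 3918 and 2536 CPM, a ratio of 0.647 (0.633 to 0.661). The libraries thus held untranslated RNA as well. Meg3, another nuclear RNA of neurons, stood at 0.613 (0.578 to 0.650), and Pvt1 was 2.98-fold lower (1.3 to 7.68) on 24 and 8 counts.

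The replication-dependent histones, whose messages lack a poly A tail, were lower in 51 of 57 measured genes, with a median of -0.47 and 15 members 1.5-fold lower (26.3%, beside 3.36% of all genes). The 3 that were 2-fold lower (5.26%, beside 1.22%), H3c13, H3c14 and H3c15, are near-identical copies whose reads may be shared, and had few counts, 20 against 5 for H3c14 (3.98-fold lower, 1.45 to 13.6). In hippocampus at 6 h the same list had a median of 2.52, in the opposite direction. Neither the noncoding RNAs nor the histones had a median past 1.5-fold in cortex.

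Of the 12 higher genes with at least 100 counts, 4 were members of any list: 3 mitochondrial ribosomal proteins and Ldha, whose list of glycolytic enzymes was added after the values were seen. Cd99l2, a membrane protein of cell adhesion, had 35.3 CPM in the control and 80.9 CPM in the conditioned library. The other 6 libraries held 50.6 to 77.0 CPM, so that the cortex control 6 h library was the low one of the 8. Its ratio was 2.29 (1.92 to 2.73) on 189 and 430 counts.

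Lmo4, a LIM-domain transcription cofactor with a role in cortical patterning and calcium-dependent transcription, had 170.1 CPM in the control and 354 CPM in the conditioned library. The remaining libraries lay between 133 and 255 CPM, so here the conditioned cortex 6 h library was the high one. Its ratio was 2.08 (1.92 to 2.25) on 910 and 1880 counts, while in hippocampus at 6 h it was 0.591 (0.525 to 0.666).

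Ldha, the lactate dehydrogenase subunit that favours lactate production, had 196 CPM in the control and 397 CPM in the conditioned library. The 1 h libraries labelled cortex held 396 and 325 CPM and the hippocampus libraries 240.1, 324, 116 and 274 CPM. The conditioned level was therefore that of the cortex control at 1 h, and the 6 h control was low. The ratio was 2.02 (1.88 to 2.18), and 2.36 (2.04 to 2.74) in hippocampus at 6 h. Slc22a17, a receptor for lipocalin-2, had 86.6 and 174 CPM in the pair and 396 and 369.7 CPM in the 1 h libraries labelled cortex, with a ratio of 2.01 (1.79 to 2.25).

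Glycolytic enzymes had a median of 0.12 over all 17 members. Gapdh was higher at 1.67 (1.56 to 1.80) on 1206 and 2007 counts, and Hk2, the inducible hexokinase, was 3.98-fold lower (1.45 to 13.6) on 20 and 5. Ldha and Gapdh were the only members past 1.5-fold on the higher side. The 80 measured oxidative phosphorylation subunits had a median of 0.10 and 0 of them differed 2-fold. Past 1.5-fold 2 were higher, Atp5b, the catalytic beta subunit of ATP synthase, at 1.80 (1.75 to 1.86), and Ndufa3 of complex I, at 1.53 (1.06 to 2.21). The 2 lower ones, Uqcrb at 0.554 (0.333 to 0.904) and Uqcrq at 0.633 (0.445 to 0.894), belong to complex III.

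Among mitochondrial ribosomal proteins, which build the ribosome of the organelle, all 78 listed were measured and 53 were positive, with a median of 0.09. The 2-fold higher members were Mrpl36, at 2.04 (1.53 to 2.74), Mrpl27, at 2.01 (1.40 to 2.92), and Mrps22, at 2.01 (1.39 to 2.95), 3.85% of the list beside 0.908% of all genes. Mrpl27 (47 and 94 counts) and Mrps22 (45 and 90) lay at the threshold, so whether they pass 2-fold depends on the scaling used. Mlycd, which degrades malonyl-CoA, had 6.73 and 17.7 CPM and a ratio of 2.63 (1.77 to 3.97). The 1 h libraries held 16.9 to 18.0 CPM, and the hippocampus control and conditioned 6 h libraries 3.69 and 8.50 CPM. Pgp, a phosphatase of glycolytic side products, had a ratio of 2.21 (1.47 to 3.40), Tbl3, a ribosome assembly factor, one of 2.15 (1.43 to 3.29) and Rcbtb2 one of 2.23 (1.45 to 3.5). Rab10os, transcribed opposite to Rab10, had a ratio of 2.20 (1.55 to 3.15), but its reads cannot be told apart from those of its partner without strand.

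The lists of the translation machinery itself were near equality. Cytosolic ribosomal proteins had a median of 0.13 over 79 measured, translation initiation and elongation factors 0.00 over 59, and translational repressors and RNA-binding proteins -0.01 over 32, with 0 members 2-fold different in any of these. The mTOR pathway had a median of 0.02 over 20 genes, of which Ddit4 and Akt1s1, an mTORC1 inhibitor also called PRAS40 (2.57-fold lower, 1.28 to 5.49, on 31 and 12 counts), were 2-fold lower. Both of these encode negative regulators of the kinase complex.

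Synaptic lists were also near equality. Camk2a, the kinase of synaptic plasticity whose message lies in dendrites, had 3622 and 3567 CPM, a ratio of 0.985 (0.965 to 1.00). Medians were 0.17 for AMPA receptor subunits and auxiliary proteins, 0.04 for NMDA receptor subunits, 0.22 for GABA-A receptor subunits, 0.09 for the synaptic vesicle machinery and -0.04 for postsynaptic scaffolds, with 0 members 2-fold different. Chrna7, the alpha-7 nicotinic acetylcholine receptor, was 2.59-fold higher (1.5 to 4.67) on 19 and 49 counts, and Htr1d, a serotonin receptor, 3.98-fold lower (1.28 to 16.3) on 16 and 4. Cck, a neuropeptide of interneurons and pyramidal cells, had a ratio of 1.56 (1.46 to 1.65) on 1715 and 2651 counts.

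Markers of other cell classes were mostly level between the 2 libraries. The medians were -0.08 for cortical excitatory neurons, 0.13 for interneurons, 0.10 for astrocytes, -0.12 for oligodendrocytes, 0.13 for microglia, 0.21 for thalamic neurons, 0.06 for hippocampal neurons and 0.06 for the olfactory bulb. Meninges and fibroblast markers had a median of 0.20 and a summed level of 213 and 321 CPM, of which Ptgds, prostaglandin D synthase, had a ratio of 1.64 (1.5 to 1.80). Cdhr1, a cadherin of olfactory bulb output neurons, was 2.79-fold higher (1.69 to 4.77) on 22 and 61 counts. Of the same list Eomes had 0 control and 10 conditioned counts, and Doc2g 0 and 14. The list as a whole was not shifted: of its 7 measured members 5 were positive and 2 negative. Gng13, not measured, had 9 control and 5 conditioned counts. Other single markers 2-fold higher were Itm2a of endothelium and C1qc of microglia (each 2.09, 1.04 to 4.41). Clic6, a chloride channel protein of choroid plexus, was 8.95-fold lower (2.14 to 79.5) on 18 and 2 counts, with 8 of that list's 14 markers at 0 in at least 1 of the pair, among them Folr1, Aqp1, Otx2 and Kcne2. The thalamic marker Gbx2 had 3 control counts and 0 conditioned ones. Scnn1a, an epithelial sodium channel subunit on the cortical list, was 2.15-fold lower (1.05 to 4.69) on 26 and 12 counts.

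**Figure D5:**
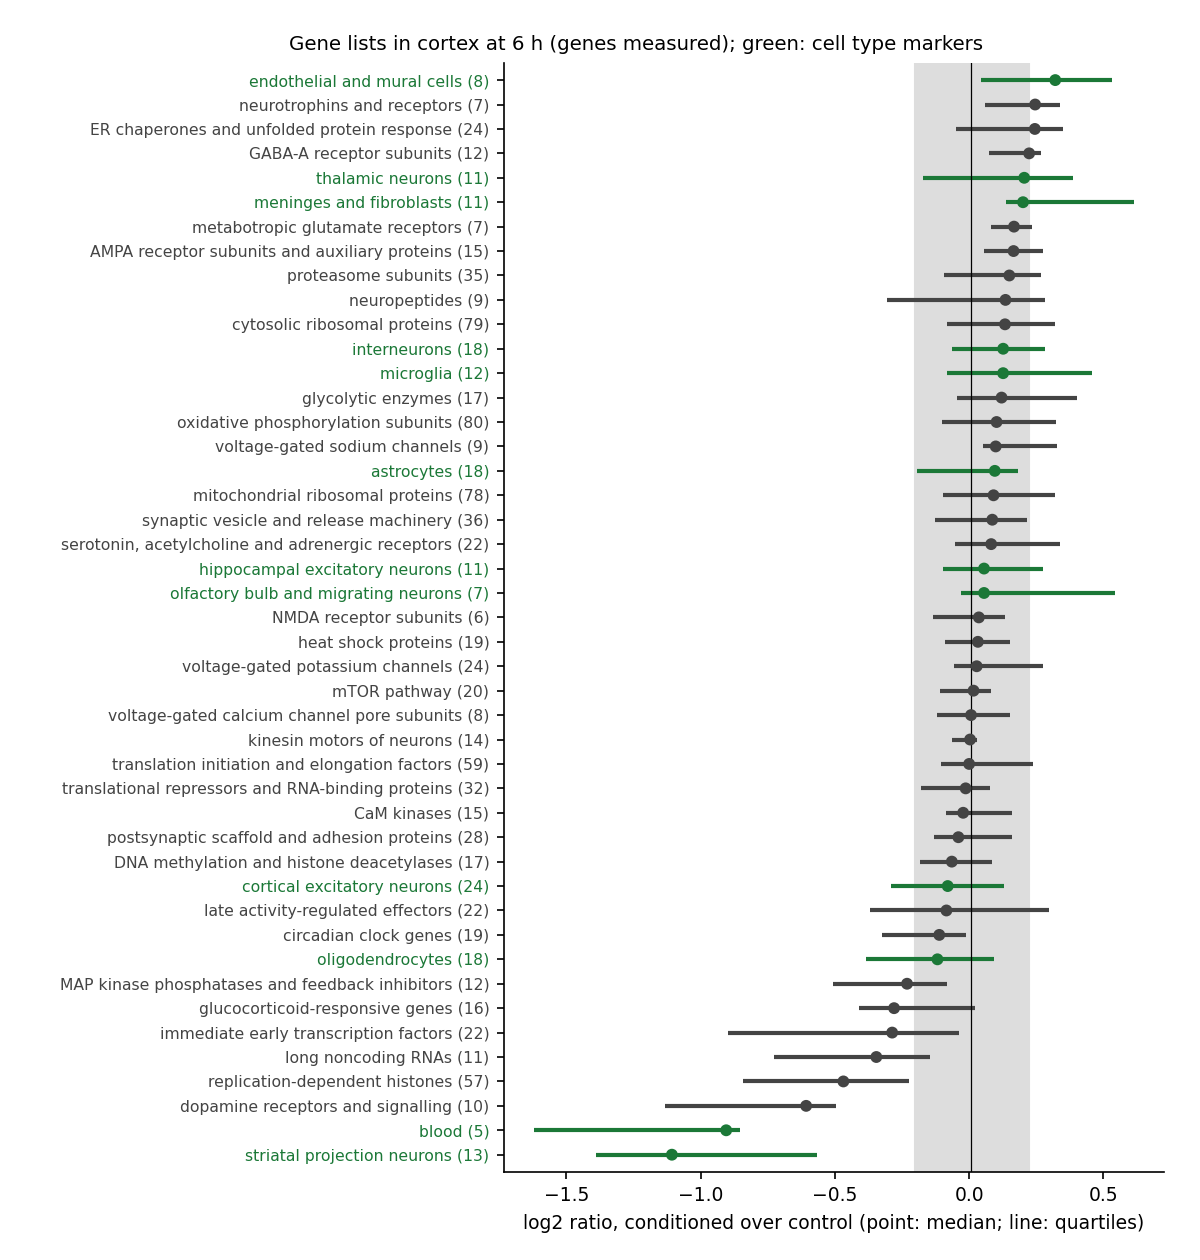
Median (points) and quartiles (lines) of the log2 ratio, conditioned over control, in cortex at 6 h for each gene list with at least 5 measured genes, whose number stands in brackets; green marks cell type markers, the grey band the quartiles over all 11563 genes and the black line their median. Striatal markers (-1.11), blood (-0.90) and dopamine genes (-0.61) are the 3 lists whose median lies past 1.5-fold.

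The ratio was little related to the make-up of the transcripts. Across 11476 genes the rank correlation of the log2 ratio with GC content was -0.075 and with transcript length -0.071, against 0.63 and -0.26 in hippocampus at 6 h; genes of 1 library are not independent, and these are descriptions. Among genes with at least 100 counts, the 28 lower ones had a median GC content of 54.5% and the 12 higher ones 51.2%. Over all measured genes it was 50.2%. The median transcript lengths of these 28 and 12 genes were 2393 and 1898.5 bases, beside 3182 over all measured genes. The measured genes had a median of 193 counts over both libraries. Of the 246 genes that differed 2-fold (2.13%), 40 had at least 100 counts, so most of them rest on wide intervals.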

How the data were processed

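Polyribosome-associated RNA was sequenced in 8 libraries, 1 for each combination of cortex or hippocampus, control or conditioned, and 1 h or 6 h. The authors deposited 1 table of read counts per RefSeq transcript, whole numbers that were not normalized. The submitters' processing notes name TopHat 1.3.1, CASAVA 1.7, limma 3.12.3, edgeR 2.612 and mouse build mm9 without saying what each did. Which program counted the reads, whether it used strand and how it shared reads between transcripts were details not given in the sources used here, so isoforms, near-identical copies and overlapping genes can share counts. The labels' protocols describe amplification and name no molecular identifiers, so intervals cover counting error only.

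Symbols were found for 98.1% of the 27304 identifiers (28157 rows) in RefSeq and GENCODE tables of GRCm38, which served for names, GC content, transcript length and promoter letters only. The 594 unmatched rows held 1.54% and 1.50% of the counts of the cortex control and conditioned 6 h libraries and were left out. Each gene was represented by its row with the highest count summed over all 8 libraries.

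TMM factors over all 8 libraries (edgeR 4.0.16, R 4.3.3) scaled the counts to CPM. No edgeR or other test was run, since each side had 1 library. Ratios of conditioned over control carry the exact conditional 95% interval of 2 Poisson counts (Python 3.11.15, scipy 1.17.1). The computation was tested on simulated Poisson counts, which share the interval's assumption. That test cannot show how well the intervals cover amplified libraries. Log2 ratios add a prior count of 2, and medians of lists use them. Genes needed at least 20 counts over both cortex 6 h libraries. The comparison, the gene lists and the designs were chosen with earlier results of these data known.

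Genes were named by these rules: the 12 higher and 12 lower genes with at least 100 counts whose interval bound nearest to 1 was farthest from it; up to 4 genes per direction and list that differed 2-fold; 11 activity and stress genes whatever their values; and defining markers at 0 in a library. Other members of the lists are named as examples, chosen after their values were seen. Alternatives covered the scaling, the filter, the prior count, the threshold, summed rows, and removal of the GC and length trend.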

Additional observations from a re-analysis of the deposited data

Results flagged for a closer look

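Several genes lower in the conditioned library of cortex at 6 h were higher in that of hippocampus at the same time. With 1 library a side these differences between tissues were not tested, and the hippocampus control 6 h library is the one in which Kif5c took 8.01% of the counts. Lars2 had a log2 ratio of -2.57 in cortex and 1.39 in hippocampus. For the beta globins Hbb-bt and Hbb-b2, which share reads, the log2 ratio was -1.62 in cortex and 2.67 in hippocampus, and the blood list as a whole had medians of -0.90 and 2.01. Ptms had log2 ratios of -1.18 and 1.73, and Rab4b -1.27 and 1.71. Of the 246 genes 2-fold different in cortex, 24 were 2-fold different in the opposite direction in hippocampus at 6 h. There 31.8% of all measured genes differed 2-fold. The count in the same direction is not given here, so 24 is not read as an excess. Of the 12 higher cortex genes with at least 100 counts 4 were also 2-fold higher in hippocampus and 0 lower. Of the 27 lower ones measured there 10 were higher and 3 lower. Over all genes measured in hippocampus at 6 h, 20% were 2-fold higher and 11.8% lower. Arc, 4.43-fold lower in cortex, had a hippocampus ratio of 1.76 (counting interval 1.25 to 2.51) that did not reach 2-fold. Npas4 was lower in both tissues.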

How the results depend on the processing

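The values were recomputed under 11 alternatives. Of 905 recomputed list medians and ratios of named genes, 904 moved by less than the counting interval (for a list, less than the median one-sided width of its members' intervals on the log2 scale) and 0 that had been past the threshold changed direction. The exception was Camk2a, whose ratio of 0.985 became 1.01 with the GC and length trend removed. The number of 2-fold higher genes lay between 93 and 133 and that of lower genes between 141 and 174 under other scalings, prior counts, filters down to 1 count and summed rows. Requiring 100 counts left 12 higher and 28 lower genes, 10 genes 2-fold different in opposite directions in cortex and hippocampus at 6 h (24 as given above, 22 to 29 under the other alternatives), and a rank correlation with GC content of -0.12. A 1.5-fold threshold gave 366 higher and 388 lower genes. With the GC and length trend removed, 1 list of at least 5 genes had a median past 1.5-fold in place of 3: striatal markers stood at -1.13 and dopamine genes at -0.57 (log2), and blood at -0.93 had 4 genes with a known GC content. Under it 94 of the 105 higher and 133 of the 141 lower genes were kept. With DESeq2 size factors, another scaling, 95 of these higher and 141 of these lower genes were kept. Among genes with at least 100 counts the striatal median was -0.74. The scaling without the 3 libraries that stand apart and the list of glycolytic enzymes were chosen after seeing the data. No paired analysis was possible because the labels give no replicate numbers and each side held 1 library, and for the same reason no library could be left out of the comparison. Small differences among genes with few counts were not detectable at this depth.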

Other observations

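Lists of other cellular systems were close to equality in cortex at 6 h. Chaperones of the endoplasmic reticulum and genes of the unfolded protein response had a median log2 ratio of 0.24 over 24 genes, 16 of them positive. Hspa5, the main chaperone of that compartment, had a ratio of 1.39 (counting interval 1.23 to 1.58), and Pdia6, a disulfide isomerase, 1.57 (1.16 to 2.14). Heat shock proteins had a median of 0.03 over 19 genes, with Cryab, a small heat shock protein, at 1.51 (1.23 to 1.85). Proteasome subunits had a median of 0.15 over 35 genes, of which Psmd13 was lower, at 0.560 (0.433 to 0.719).

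Circadian clock genes were negative in 15 of 19 with a median of -0.11. Per3 was the 1 member past 1.5-fold, at 0.651 (0.473 to 0.892), while Arntl, which encodes the BMAL1 activator, stood at 1.06 (0.759 to 1.49). Voltage-gated channels had medians of 0.03 (potassium), 0.10 (sodium) and 0.01 (calcium pore subunits), and DNA methylation and histone deacetylase genes -0.06. Kinesin motors of neurons had a median of 0.00 over 14 genes, of which Klc2, a kinesin light chain, stood at 0.651 (0.572 to 0.739). Neurotrophins and their receptors had a median of 0.25 over 7 genes, with Ntrk2, the receptor of Bdnf, at 1.23 (1.12 to 1.35).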
